A study of Arabidopsis thaliana with 19 samples.

Results

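Seedlings of Arabidopsis thaliana carrying a construct labelled 35S:MYB28_like_miR were compared with wild type seedlings of the same experiment, on 2 Affymetrix ATH1 arrays each. The 4 arrays were taken by their titles from the 19 arrays of the series. They are called MYB28_like_miR and WT_miR here. A further line of that experiment, 35S:ATR1_like_miR with 2 arrays, is called ATR1_like_miR and shares the WT_miR arrays as its control. Lines overexpressing MYB29 or MYB76 (MYB29_OE and MYB76_OE, 2 arrays each) and their 3 wild type arrays (WT_MYB29_MYB76) served for comparison. Shoots of plants 14 days old were used in every group, without cotyledons and hypocotyls. Plants grew in short days, with light for 10 h and darkness for 14 h, at 20 °C. The label 35S is the usual name of a plant virus promoter that is active in most plant tissues, and miR stands in the title for a microRNA. The labels give neither the target genes nor the sequence of the microRNA, neither the ecotype nor the number of independent lines, and do not say whether the 2 replicates were grown apart. The p-values therefore refer to the spread among arrays and not with certainty to that among plants.

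For MYB28_like_miR replicate 2 the source field names 35S:ATR1, while the title names 35S:MYB28_like_miR, and the title was followed. Where it is grouped below by its source field, or with the lines that field names, it was put with the 2 ATR1_like_miR arrays. It was not put with the line overexpressing ATR1. That grouping leaves 1 array in MYB28_like_miR. Over the tested probe sets the log2 signals of MYB28_like_miR replicate 1 correlated with those of replicate 2 at r = 0.964 and with those of ATR1_like_miR replicate 2 at r = 0.968. Replicate 2 correlated at r = 0.954 and r = 0.947 with the 2 ATR1_like_miR arrays, below its correlation with MYB28_like_miR replicate 1. Replicate 1 was thus slightly closer to an array of the other microRNA line, and replicate 2 closest to the array of the same title. Counts of nuclear, plastid-encoded and mitochondrion-encoded calls, and of calls in the other comparisons, are given below with and without replicate 2. So is the loss of calls among the nuclear genes named for the size of their change against WT_miR. Counts for gene lists, plastid classes, at least 2-fold changes, unnamed probe sets and overlaps between lines rest on both replicates.

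Glucosinolates are sulfur-containing defence compounds of the cabbage family, made from amino acids. The aliphatic ones start from methionine: BCAT4 removes its amino group, a chain elongation cycle lengthens the side chain, cytochromes P450, glutathione transferases, a C-S lyase, glucosyltransferases and sulfotransferases build the core, and oxygenases such as AOP3 then modify the side chain. MYB28, MYB29 and MYB76 are the transcription factors of Arabidopsis known to activate these genes, while ATR1 (MYB34) and MYB51 activate the indole branch. An artificial microRNA is a short RNA designed to pair with the transcripts of chosen genes and lower them. Arabidopsis leaf cells hold 3 genomes, in the nucleus, the plastids and the mitochondria, and transcripts of the organelle genomes mostly lack the long stable poly(A) tails of nuclear ones. The genes of the 3 genomes are therefore reported apart.

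The table used to name probe sets holds no single-gene entry for MYB28, MYB29, MYB76, ATR1 or MYB51, so the level of a possible target was not analysed here and the label could not be checked on it. The 12 indole glucosinolate genes listed had no named probe set either. The signal of each array is scaled to a common trimmed mean of 250, and the array medians of all 19 arrays lay between 78.4 and 106.5. The labelled tissue showed its markers: the median signal of the nuclear photosynthesis genes was between 5211 and 11811 on the 19 arrays. Of markers of other organs only EXP7 of the root list was named and tested, at signals of 16.8 and 19.1 in MYB28_like_miR against 7.44 and 34.7 in WT_miR, so the groups overlapped. The control probe sets gave 3'/5' ratios for actin of 8.76 and 9.98 in MYB28_like_miR against 7.02 and 7.26 in WT_miR, and for ubiquitin of 1.76 and 2.49 against 1.31 and 1.503. These measures of RNA integrity moved with the groups, and their part in the results was not tested.

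BCAT4, the aminotransferase that starts methionine chain elongation, was the nuclear gene with the largest fall. Its signals were 151 and 27.6 on the 2 MYB28_like_miR arrays against 1431 and 3386 on the 2 WT_miR arrays, or 89.5 ± 87.5 against 2408 ± 1383 (mean ± SD, n = 2). The groups were far apart, and the lower wild type array was still several times above the higher microRNA array. The change was -5.09 ± 0.78 on the log2 scale (SE of the fit), which is 34.1-fold lower, with a 95% interval from -6.74 to -3.44 and an adjusted p of 0.00164 (limma, with Benjamini and Hochberg's adjustment over all 15627 probe sets tested). In ATR1_like_miR the signals of BCAT4 were 889 and 1813, between the other groups and overlapping the wild type range. Its call held with any 1 of the 4 arrays left out, at adjusted p-values from 0.000976 to 0.0294, but the size of the change rested on both microRNA arrays: it was -3.86 without MYB28_like_miR replicate 2 and -6.32 without replicate 1. When replicate 2 was grouped with the lines its source field names, the change was -3.86 and not called (adjusted p = 0.261).

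AOP3, a 2-oxoglutarate-dependent dioxygenase that forms hydroxyalkyl side chains, also fell. Its signals were 635 and 502 in MYB28_like_miR against 1266 and 2881 in WT_miR. Both WT_miR arrays lay above both MYB28_like_miR arrays, with the WT_miR arrays themselves over 2-fold apart. The change was -1.76 ± 0.37 on the log2 scale, 3.38-fold lower, with an adjusted p of 0.0130. It was not called without MYB28_like_miR replicate 2 (adjusted p = 0.0987), and without WT_miR replicate 2 it was -1.16 (adjusted p = 0.116).

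UGT74C1, a glucosyltransferase of the aliphatic core pathway, had signals of 330 and 370 against 986 and 1142. Here the arrays of each group lay close together and the groups far apart. It fell 3.04-fold, by 1.60 ± 0.33 on the log2 scale, with an adjusted p of 0.0127. With any 1 of the 4 arrays left out the adjusted p was between 0.0580 and 0.0771, so the call needs all 4 arrays.

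These 3 were the called genes among 7 aliphatic genes that were named and tested, of 32 listed, and no aliphatic gene was called higher. Here called means an adjusted p under 0.05. The background is that 6.43% of all probe sets tested were called, 4.37% as lower and 2.06% as higher. The median change of the 7 genes was -0.93 on the log2 scale, against -0.14 over all probe sets tested. It moved with other wild type arrays as the control. It was -0.05 with all 7 arrays of the series and +0.21 with the 5 of the other experiments. With the 3 WT_MYB29_MYB76 arrays it was +0.05, and with the 2 of the ATR1 and MYB51 experiment +0.69. It moved the other way, to -2.39, with each array's median log2 signal of the plastid-encoded genes as a covariate. In that fit BCAT4 was at -8.15 (limma, adjusted p = 0.0246). AOP3 was at -3.14 (adjusted p = 0.0800) and UGT74C1 at -2.16 (adjusted p = 0.273), and neither was called. The covariate itself differed widely between MYB28_like_miR and WT_miR. UGT74B1, the glucosyltransferase shared with the indole branch, had signals of 538 and 485 against 807 and 1167, a log2 difference of -0.93 (adjusted p = 0.170). GSTU20, a glutathione transferase, had 2159 and 3194 against 3276 and 4902, a difference of -0.61 (adjusted p = 0.398). In both genes the groups did not overlap, as was the case for 55.5% of all probe sets tested. AOP1, next to AOP3 in the genome, had a difference of +0.63 (adjusted p = 0.191), and GSL-OH, which hydroxylates alkenyl side chains, lay at or under the floor (the 20th percentile of an array, to which lower signals were raised) on both WT_miR arrays, at signals of 3.47 and 1.59 against 23.0 and 14.9.

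Wild type levels of these genes differed between the experiments. BCAT4 signals were 1563, 2176 and 791 on the 3 WT_MYB29_MYB76 arrays, but 86.1 and 11.7 on the 2 wild type arrays of the ATR1 and MYB51 experiment. Both MYB28_like_miR arrays thus lay below the first of these groups, while against the second 1 lay above and 1 within its range. Against the WT_MYB29_MYB76 arrays BCAT4 was lower by 4.43 on the log2 scale (limma, adjusted p = 0.00249). UGT74C1 was at -1.31 there (adjusted p = 0.0158), while AOP3 was at -0.64 and not called (adjusted p = 0.219). Against the other 2 wild type arrays the difference of BCAT4 turned to +0.83 (adjusted p = 0.477), and AOP3 likewise to +0.68 (adjusted p = 0.211). UGT74C1 was at -0.28 (adjusted p = 0.582). Against all 7 wild type arrays BCAT4 was lower by 3.11 (adjusted p = 0.235). AOP3 was at -0.58 (adjusted p = 0.586) and UGT74C1 at -1.10 (adjusted p = 0.132), so none of the 3 genes was called. These other controls were partly chosen after the data were seen.

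**Figure D1:**
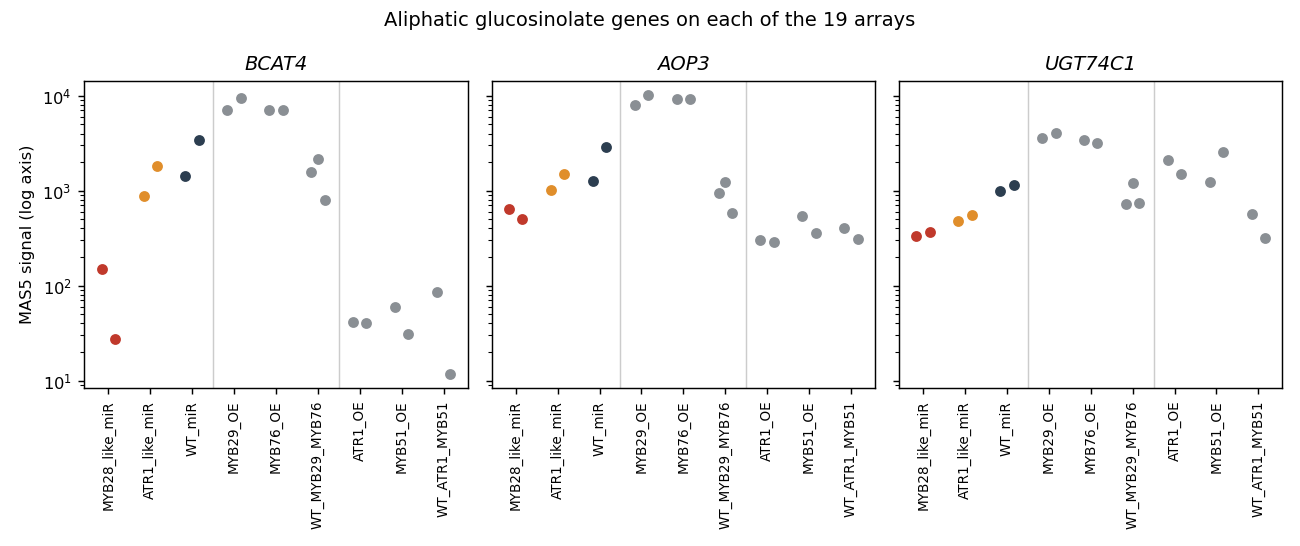
MAS5 signal (log axis) of BCAT4, AOP3 and UGT74C1 on each of the 19 arrays; every point is 1 array, and grey lines part the 3 experiments. The 2 MYB28_like_miR arrays lie below the 2 WT_miR arrays in all 3 genes, and BCAT4 is also low on the 2 WT_ATR1_MYB51 arrays (86.1 and 11.7).

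The tested genes that supply the pathway with sulfur and methionine gave no call. They were 4 of 24 listed for sulfate and 5 of 15 for methionine. Over all probe sets tested 6.43% were called, and no call among so few genes is near that share. None of 4 tested genes of sulfate assimilation passed the test: APS3, an ATP sulfurylase, had signals of 240 and 201 against 254 and 489, and the sulfite reductase gene SIR had 1453 and 922 against 1221 and 1518, so that its groups overlapped. The transporter gene PAPST1 had 332 and 338 against 361 and 837. Of 5 genes of methionine metabolism none passed either. CBL, cystathionine beta-lyase of methionine synthesis, came closest, with 1116 and 990 against 1773 and 1969, a log2 difference of -0.83 (adjusted p = 0.0694), and it was called under quantile normalization. MSRB6, a methionine sulfoxide reductase, had 648 and 383 against 53.4 and 282, a difference of +2.02 (adjusted p = 0.133), with the 2 wild type arrays several-fold apart. MSRB5, HMT1 and MGL had differences of +0.58, +0.22 and +0.85, and APS4 of sulfate assimilation +0.05.

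The tested regulators, breakdown and transport genes gave no call in the same test. They were 2 of 12 listed regulators and 4 of 20 genes of breakdown and transport. So few genes without a call are again near the share of 6.43% called over all probe sets. MYC3, which works together with the MYB factors, had signals of 281 and 237 against 398 and 433, a log2 difference of -0.69 (adjusted p = 0.110). MYC4, its close relative, had 77.1 and 71.0 against 126 and 120, a difference of -0.73 (adjusted p = 0.269). In both the groups did not overlap, as in 55.5% of all probe sets tested. Among 4 genes of breakdown and transport, the transporter gene GTR2 had the largest difference, -0.85 (adjusted p = 0.155), while its relative GTR1 had +0.44 (adjusted p = 0.516). The myrosinase-like gene PYK10 had 2017 and 3154 against 4128 and 2658, with overlapping groups. IGPS of tryptophan synthesis had 578 and 594 against 600 and 794, a difference of -0.24 (adjusted p = 0.594).

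The change in MYB28_like_miR was then set against the changes in the lines that overexpress MYB29 or MYB76, each against its own wild type arrays, which the microRNA experiment does not share. The difference between the changes was called for 18.3% of all probe sets with MYB29_OE and for 16.9% with MYB76_OE, 12% and 11.2% as lower and 6.32% and 5.71% as higher. In numbers these were 2856 and 2639 probe sets, and 1666 and 1544 without MYB28_like_miR replicate 2. Of the 23 tested genes of the glucosinolate, sulfate and methionine lists 12 were called lower and 1 higher against MYB29_OE, and 11 lower and 1 higher against MYB76_OE. MYB29_OE itself had 14 of the 23 called higher against its wild type, and MYB76_OE had 11. Over all probe sets 8.09% were called higher and 6.63% lower in MYB29_OE, together 14.7%, and 7.15% and 5.61% in MYB76_OE, together 12.8%. Those lines share their wild type arrays, and their results are not independent of each other. Plastid-encoded signal was high in MYB28_like_miR and low in WT_miR, but low in the overexpressing lines and high in their wild type arrays. It thus moved with the differences given here and in the next paragraphs, and its part in them was not tested.

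BCAT4 signals were 7056 and 9443 in MYB29_OE and 7116 and 7131 in MYB76_OE, above every array of the other groups. The change of BCAT4 was +2.55 ± 0.71 in MYB29_OE and +2.36 ± 0.71 in MYB76_OE on the log2 scale, where it was -5.09 in MYB28_like_miR. The changes differed by -7.64 ± 1.05 (adjusted p = 0.000277) and -7.45 ± 1.05 (adjusted p = 0.000347). AOP3 had changes of +3.36 and +3.39 in the overexpressing lines, so that the difference from MYB28_like_miR was -5.12 ± 0.50 (adjusted p = 9.55e-06) and -5.15 ± 0.50 (adjusted p = 9.27e-06). UGT74C1 had changes of +2.13 and +1.93, and differences of -3.73 (adjusted p = 8.25e-05) and -3.53 (adjusted p = 0.000148). Of the 23 genes these 3 were called in opposite directions in MYB28_like_miR and in each overexpressing line.

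Other genes of the lists that differed between the lines had no called change in MYB28_like_miR. BGLU28, a beta-glucosidase, had signals of 1470 and 1121 in MYB29_OE against 22.4, 18.97 and 23.48 in its wild type, and 26.2 and 21.9 in MYB28_like_miR against 36.8 and 40.4. Its change in MYB28_like_miR was -0.69 (adjusted p = 0.217), and the difference of the changes was -6.59 ± 0.44 (adjusted p = 1.12e-07). APS3 reached 2165 and 3082 in MYB29_OE against 197, 284 and 218, while its change in MYB28_like_miR was -0.69 (adjusted p = 0.230); the difference was -4.17 ± 0.45 (adjusted p = 3.16e-05). MSRB6 went the other way, with 131 and 36.3 in MYB29_OE against 524, 1601 and 394 in its wild type, and the difference of the changes was +5.35 ± 1.06 (adjusted p = 0.00373).

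Outside these lists AT3G05400 and AT1G60200 were among the 5 genes with the lowest difference from both overexpressing lines. AT3G05400 had signals of 25.5 and 20.6 in MYB28_like_miR against 42.4 and 27.5, and changes of +4.65 and +5.51 in MYB29_OE and MYB76_OE. AT1G60200 fell by 3.44 here and had changes of +1.11 and +1.38 there, with differences of -4.55 (adjusted p = 0.00110) and -4.82 (adjusted p = 0.000755). Among the highest were AT4G12490, with differences of +5.96 (adjusted p = 0.00285) and +6.47 (adjusted p = 0.00168), and AT1G30250, with +4.36 (adjusted p = 0.00194) and +4.55 (adjusted p = 0.00151). AT4G12490 was called in MYB28_like_miR itself, AT1G30250 was not (adjusted p = 0.270). AT1G23390 and AT4G10910 followed for MYB29_OE, at +5.10 and +4.73, and AT2G47880 and AT4G25780 for MYB76_OE, at +4.56 and +4.54.

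**Figure D2:**
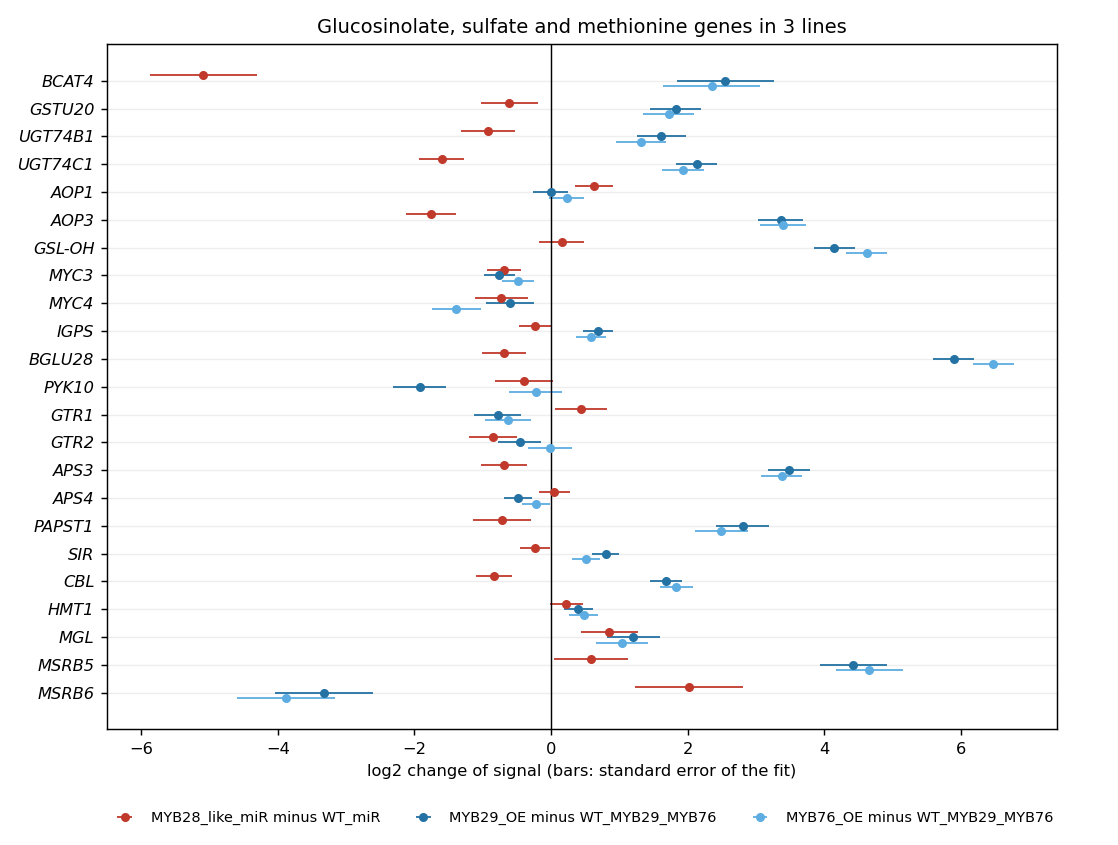
Log2 change of signal (horizontal axis) of the 23 tested glucosinolate, sulfate and methionine genes in MYB28_like_miR and in the MYB29 and MYB76 overexpressing lines, each against its own wild type; bars are standard errors of the fit. BCAT4, AOP3 and UGT74C1 lie at -5.09, -1.76 and -1.60 in MYB28_like_miR and above 0 in both other lines.

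Over the nuclear genome 460 of 8490 named probe sets were called in MYB28_like_miR against WT_miR, which is 5.42%. Of these 131 (1.54%) were higher and 329 (3.88%) lower; after quantile normalization 166 were higher and 158 lower, and with arrays centred on the median of nuclear and unnamed probe sets 239 were higher and 142 lower, so the surplus of falls depends on the scaling. The median nuclear change was -0.14 on the log2 scale as deposited and +0.05 after that centring. At least 2-fold changes among the called made up 83 rises (0.978%) and 231 falls (2.72%). A further 451 calls fell on 6739 probe sets without a named gene, 117 higher and 334 lower. With 1 array left out, between 71 nuclear calls (without WT_miR replicate 1) and 240 (without MYB28_like_miR replicate 1) were made, and 108 without MYB28_like_miR replicate 2. With the median log2 signal of the plastid-encoded genes of each array as a covariate, 8 were made. That covariate was 10.4 and 9.46 in MYB28_like_miR against 4.64 and 5.48 in WT_miR. Plastid signal and the line can thus hardly be told apart in this fit. The part of plastid signal in the nuclear calls was not tested.

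The 12 largest nuclear falls with arrays that did not overlap ran from 4.99-fold to 34.1-fold. Of these 12 and the 12 largest rises, 22 of 24 kept their call after quantile normalization, the others being AT1G24575 (adjusted p = 0.0561) and AT1G32810 (adjusted p = 0.0504). Fewer were called with 1 array left out: 14 of 24 without MYB28_like_miR replicate 2, 15 without replicate 1, 10 without WT_miR replicate 1 and 15 without WT_miR replicate 2. With MYB28_like_miR replicate 2 grouped by its source field 10 were called. The falls lost without MYB28_like_miR replicate 2 were those of AT2G07360 (adjusted p = 0.169), AT1G33470 (0.257), AT1G32810 (0.138) and AT2G31150 (0.305). After BCAT4 came AT1G60200, with signals of 18.6 and 12.9 against 177 and 180, and AT1G77030, with 17.3 and 22.2 against 146 and 190. Both showed close replicates in each group. AT1G60200 fell 10.9-fold (log2 -3.44 ± 0.55, adjusted p = 0.00243), where 1 of the microRNA arrays lay at the floor. AT1G77030 fell 8.51-fold (log2 -3.09 ± 0.30, adjusted p = 2.00e-05), which was the lowest adjusted p among the 24 genes named for their size.

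AT5G49470, annotated as RAF10, a name of Raf-like protein kinases, had signals of 9.47 and 14.6 against 104 and 79.4, an at least 6.42-fold fall (adjusted p = 0.00275), since 1 microRNA array lay at the floor and the other just above it. AT2G32150 had 77.7 and 78.2 against 534 and 379, a 5.78-fold fall (adjusted p = 0.00137). AT1G19960 had 63.9 and 88.8 against 357 and 508, a 5.65-fold fall (adjusted p = 0.00587). In these the replicates stayed close. In AT1G67870, AT2G07360, AT1G33470, AT1G24575 and AT2G31150 the microRNA arrays were several-fold apart, as in AT1G67870 with 18.5 and 114 against 376 and 290, and these 5 genes kept their call in 11 to 18 of the 22 or 23 alternatives tried. AT1G32810 had 18.8 and 2.17 against 90.9 and 93.7, with 1 microRNA array at the floor. Of unnamed probe sets the largest falls were 249866_at, with 75.5 and 20.3 against 756 and 1942 (log2 -4.95 ± 0.68, adjusted p = 0.000759), and 254862_at, with 117 and 84.0 against 465 and 1425 (log2 -3.04 ± 0.45, adjusted p = 0.00137).

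The 12 largest nuclear rises ran from 3.91-fold to 24.4-fold. AT4G12490 had signals of 1005 and 635 against 35.3 and 30.3, the widest gap among them. It rose by 4.61 ± 0.84 on the log2 scale (adjusted p = 0.00622). Its neighbour AT4G12500 had 99.8 and 194 against 15.6 and 17.3, both at the floor, and rose at least 8.36-fold (adjusted p = 0.00154). Over the 19 arrays AT4G12490 was above 100 on the 2 MYB28_like_miR arrays and on 1 WT_MYB29_MYB76 array, at 479.

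Genes of known name among the rises were JRG21, PDF1.4 and PRA1.B4. JRG21, a jasmonate-regulated gene, had 175 and 97.5 against 14.0 and 21.2 and rose 7.14-fold (adjusted p = 0.00761), with 1 wild type array at the floor. PDF1.4, which encodes a small cysteine-rich protein of the defensin family, had 125 and 207 against 26.6 and 23.3 and rose 6.45-fold (adjusted p = 0.00439). The call of PDF1.4 was lost without MYB28_like_miR replicate 2 (adjusted p = 0.0580) and with that array grouped by its source field (0.245), and the call of JRG21 without MYB28_like_miR replicate 1 (0.0637) and without WT_miR replicate 1 (0.0814). PRA1.B4, a prenylated RAB acceptor, had 172 and 195 against 20.7 and 94.2, a 4.15-fold rise (adjusted p = 0.0258) that was lost in 12 of 23 alternatives. The remaining rises were AT4G10910, AT5G43450, AT1G62510, AT2G16660, AT3G11930, AT4G18670, AT2G22510 and AT4G22510. The calls of AT4G10910 and AT4G22510 were lost without any 1 of the 4 arrays, at adjusted p-values of 0.193 and 0.120 without MYB28_like_miR replicate 2. Those of AT5G43450 (0.0728) and AT2G22510 (0.319) were also lost without that array and without WT_miR replicate 1, and that of AT4G10910 was lost in 13 of 23 alternatives and that of AT2G22510 in 9 of 22. Of these AT1G62510 had 398 and 248 against 57.5 and 58.8 (5.40-fold, adjusted p = 0.00317), and AT4G18670 had 288 and 245 against 54.8 and 79.0 (4.04-fold, adjusted p = 0.00761). AT3G11930 rose 4.18-fold against WT_miR, with 494 and 227 against 140 and 45.8, but it was lower than in the WT_MYB29_MYB76 arrays by 2.61 on the log2 scale (adjusted p = 0.00346).

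Besides AT4G12500, 3 nuclear genes rose from the floor of both wild type arrays, so that their folds are lower bounds. SAG29, a senescence-associated sugar transporter of the SWEET family, had 146 and 103 against 9.15 and 5.95, at least 7.37-fold higher (adjusted p = 0.0101). AT3G02480 had 446 and 87.9 against 1.45 and 2.86, at least 11.9-fold higher (adjusted p = 0.0217), and AT5G25840 was at least 3.09-fold higher (adjusted p = 0.0167). The transcribed pseudogene AT3G48650 fell to the floor on both microRNA arrays and was at least 3.57-fold lower (adjusted p = 0.0493).

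**Figure D3:**
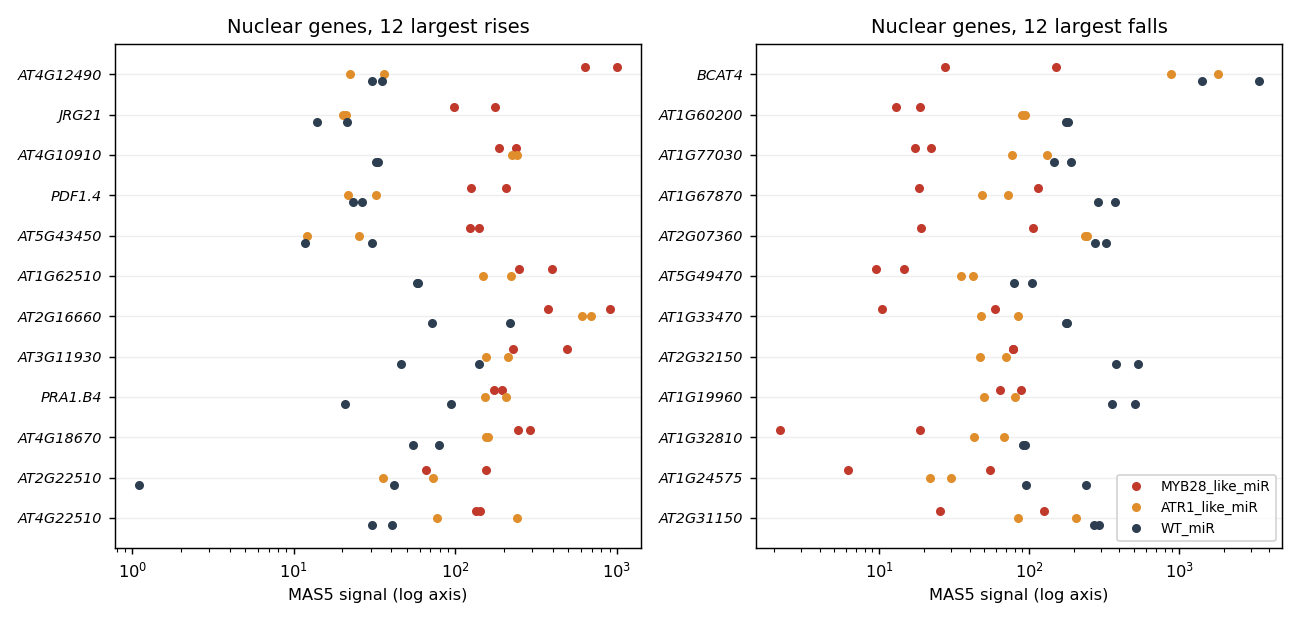
MAS5 signal (log axis) of the 12 largest nuclear rises and the 12 largest falls on the 2 arrays each of MYB28_like_miR, ATR1_like_miR and WT_miR; every point is 1 array. AT4G12490 lies at 1005 and 635 in MYB28_like_miR and at 36.0 and 22.2 in ATR1_like_miR, while AT4G10910 lies at 186 and 239 and at 225 and 242.

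Most other gene lists gave no call. Over the named nuclear probe sets 1.54% were called higher and 3.88% lower, and each of these lists held few tested genes. Of 8 nuclear photosynthesis genes 2 were called higher: PSBW of photosystem II, with 6505 and 7016 against 4698 and 4317 (log2 +0.59, adjusted p = 0.0190), and PSBY, with 7592 and 8354 against 5716 and 5631 (log2 +0.49, adjusted p = 0.0410). Both are small changes of abundant transcripts, and both calls were lost under quantile normalization and without MYB28_like_miR replicate 2, WT_miR replicate 1 or WT_miR replicate 2. Of 3 leaf polarity genes PHV, a class III homeodomain-leucine zipper factor of the upper leaf side, fell 2.25-fold, with 277 and 234 against 607 and 540 (adjusted p = 0.0106), and YAB5, a YABBY factor of the lower side, rose 1.89-fold, with 149 and 130 against 63.8 and 85.3 (adjusted p = 0.0428). The call of PHV was lost without MYB28_like_miR replicate 2 and without WT_miR replicate 1, and that of YAB5 without any 1 of the 4 arrays. Against the 3 WT_MYB29_MYB76 arrays both changed sign, PHV to +0.31 and YAB5 to -0.12.

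In the remaining lists no gene passed the test, while some differences were large beside the spread they had. The 4 cold and dehydration genes had a median log2 difference of +2.07, and LTI30, a dehydrin gene, had signals of 571 and 517 against 24.4 and 69.5 (log2 +3.72 ± 1.07, adjusted p = 0.0501). COR47, another dehydrin gene, had 493 and 837 against 741 and 1038 (log2 -0.45, adjusted p = 0.556), with overlapping groups. COR15A had 272 and 201 against 2.30 and 101, where the wild type arrays stood farther apart from each other than the higher one from MYB28_like_miR. The 3 flavonoid genes had a median of +1.12, with DFR at 983 and 1911 against 296 and 1345 and overlapping groups. JAL22, a jacalin-related lectin gene, had 174 and 254 against 657 and 591 (log2 -1.57, adjusted p = 0.0550). The heat shock gene HSP22.0 lay at the floor on both microRNA arrays, at 6.97 and 3.35 against 30.4 and 66.2 (adjusted p = 0.0734). Cell division, auxin response, salicylate defence, metal and small RNA genes had log2 differences from -1.01, for the iron-related gene FEP3, to +0.17, for WES1 of auxin conjugation, and none was called.

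Against ATR1_like_miR, the other microRNA line, MYB28_like_miR differed in 5 of 15627 probe sets, which is 0.032%, with 4 higher (0.0256%) and 1 lower (0.0064%). At an unadjusted p under 0.05 there were 1214 (7.77%). AT1G77030 was the one called lower, with 17.3 and 22.2 in MYB28_like_miR, 131 and 76.6 in ATR1_like_miR and 146 and 190 in WT_miR. It was 5.12-fold lower than in ATR1_like_miR (log2 -2.35 ± 0.30, adjusted p = 0.00652). AT4G12500 had 12.6 and 2.94 in ATR1_like_miR, both at the floor, and was at least 10.1-fold higher in MYB28_like_miR (adjusted p = 0.0128). Of the other 3 probe sets, 254805_at and 259553_x_at have no named gene, and 267053_s_at is annotated with several genes, so none is named. Without MYB28_like_miR replicate 2 there were also 5 calls, 2 of them among the 5 above.

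The large glucosinolate changes were not called between the microRNA lines. BCAT4 was 19.7-fold lower in MYB28_like_miR than in ATR1_like_miR, with a log2 difference of -4.30 ± 0.78, a 95% interval from -5.95 to -2.64 and an adjusted p of 0.0646. AOP3 differed by -1.14 (adjusted p = 0.463) and UGT74C1 by -0.56 (adjusted p = 0.769). The interval of BCAT4 lies well below 0, so the missed threshold does not show that the lines were alike in it. AT4G12490, JRG21 and PDF1.4 were near wild type levels in ATR1_like_miR, at 36.0 and 22.2, 20.14 and 21.0, and 32.2 and 21.5. Their differences of +4.82, +2.67 and +2.61 had adjusted p-values of 0.0646, 0.127 and 0.0646. For AT4G10910 and AT2G16660, in contrast, ATR1_like_miR arrays lay at MYB28_like_miR levels, with 225 and 242 beside 186 and 239, and 692 and 609 beside 907 and 376.

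Most plastid-encoded genes were called higher, against 2.06% of all probe sets tested. Of 68 tested 51 were called higher and none lower (44 higher without MYB28_like_miR replicate 2), and their median change was +4.50 on the log2 scale, which is 22.6-fold. The median over all nuclear probe sets was -0.14. The median signal of the 68 genes was 1324 and 710 on the MYB28_like_miR arrays against 24.9 and 44.7 on the WT_miR arrays. It was also high in ATR1_like_miR, at 959 and 1889, and in the WT_MYB29_MYB76 arrays, at 2597, 1002 and 271. On the other 12 arrays, wild type and overexpressing alike, it lay between 24.9 and 84.8. Plastid-encoded signal thus separated arrays across the study's genotypes, 3 wild type arrays among the high ones, and against those 3 arrays the median change of the 68 genes was +0.04, with 5 genes called lower.

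**Figure D4:**
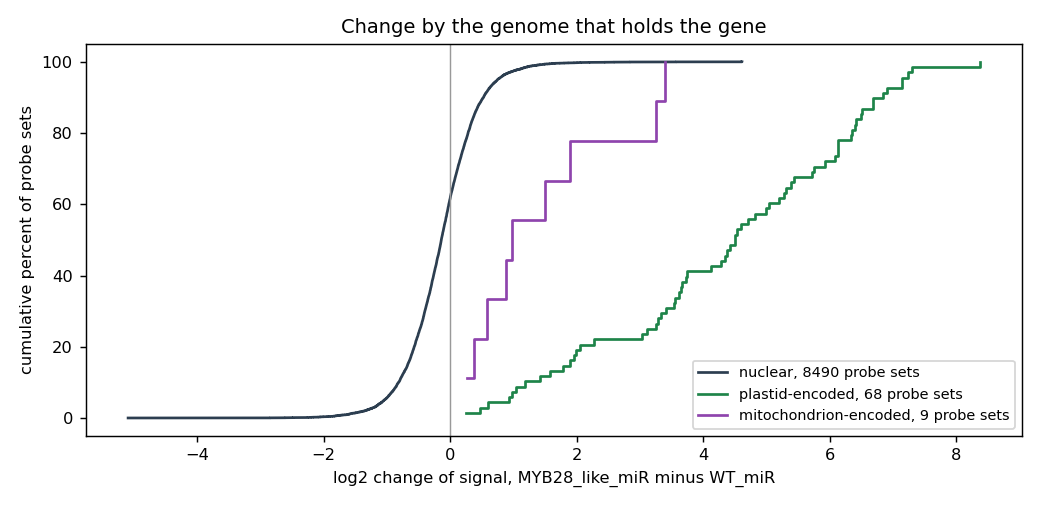
Cumulative percent of tested probe sets (vertical axis) against the log2 change of signal in MYB28_like_miR, for nuclear, plastid-encoded and mitochondrion-encoded genes. The nuclear curve crosses its middle near -0.14, the plastid curve at 4.50 and the mitochondrial curve at 0.97.

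Every functional class of plastid genes held genes called higher, where 2.06% of all probe sets tested were. Of 15 ribosomal protein genes 14 were called, with a median change of +5.74, and of 15 photosystem II genes 10 were called, with a median of +4.49. The ATP synthase genes had 5 of 6 called and a median of +5.85. The largest change was that of clpP, a subunit of the plastid Clp protease, with signals of 5322 and 5706 against 7.88 and 16.9, both at the floor, and thus at least 331-fold higher (adjusted p = 0.000218). The ATP synthase genes atpB and atpE had 9608 and 9936 against 75.1 and 51.6 (157-fold, adjusted p = 5.56e-07), and 8394 and 8425 against 64.0 and 55.0 (142-fold, adjusted p = 2.85e-08). petB of the cytochrome b6f complex had 7164 and 8115 against 39.0 and 65.4 (151-fold), and ndhI of the NDH complex had 6191 and 5155 against 27.7 and 57.4 (142-fold). In 8 of the 68 genes both wild type arrays lay at the floor and in 15 more 1 of them did, so that the class medians are in part lower bounds.

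Other plastid genes were not called. psbA, which encodes the D1 protein, had 281 and 399 against 144 and 215 (log2 +0.93, adjusted p = 0.191). psbD and psbC had 283 and 215 against 114 and 278, and 278 and 123 against 96.7 and 156, so that both overlapped between the groups. rbcL, the large subunit of Rubisco, had 273 and 144 against 35.1 and 81.5 (log2 +1.89, adjusted p = 0.220). These genes and the next were named after their values were seen. Of the core genes of photosystem I, psaB rose from 66.9 and 83.0 to 6297 and 6311, while psaA had 906 and 111 against 45.4 and 94.3 (adjusted p = 0.220). The 8 nuclear photosynthesis genes had a median log2 change of +0.25.

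**Figure D5:**
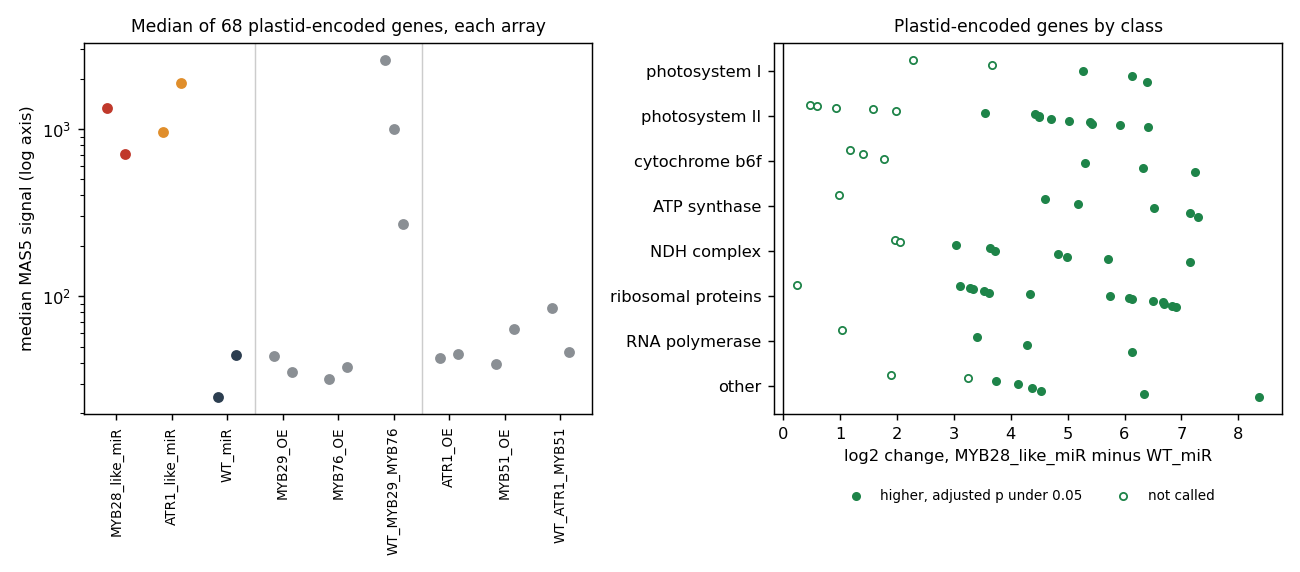
Left, median MAS5 signal (log axis) of the 68 plastid-encoded genes on each of the 19 arrays; right, log2 change in MYB28_like_miR of each gene by functional class, filled where called. The 2 MYB28_like_miR arrays lie at 1324 and 710, with the ATR1_like_miR and WT_MYB29_MYB76 arrays, and all other arrays lie between 24.9 and 84.8.

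Of 9 mitochondrion-encoded genes tested 3 were called higher and none lower, with a median change of +0.97 on the log2 scale. Over all probe sets tested 2.06% were called higher and 4.37% lower. ccb382, a gene of cytochrome c maturation, had signals of 439 and 585 against 32.6 and 70.8 and rose 10.54-fold (adjusted p = 0.00679). nad4, a subunit of complex I, had 127 and 200 against 2.98 and 3.93, both at the floor, and rose at least 9.55-fold (adjusted p = 0.0110). cox1 of cytochrome c oxidase had 106 and 154 against 20.2 and 58.8, a 3.71-fold rise (adjusted p = 0.0352), while nad9 missed the threshold at +1.49 (adjusted p = 0.0532). No mitochondrial gene was called without MYB28_like_miR replicate 2 or without WT_miR replicate 1. In ATR1_like_miR 3 of the 9 genes were likewise called higher against WT_miR, with a median change of +1.48. Of the named nuclear probe sets 1.31% were called in that comparison. The ATR1_like_miR signals were 518 and 887 for ccb382, 164 and 138 for nad4, and 102 and 163 for cox1. A copy of mitochondrial DNA lies in nuclear chromosome 2. Of 10 probe sets named for it 3 were called higher in MYB28_like_miR. They cannot be told apart from the mitochondrial genes they resemble.

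The falls in MYB28_like_miR were compared with the rises in the overexpressing lines over nuclear and unnamed probe sets. Of 663 lower here 140 were higher in MYB29_OE, which is 21.1% of the former and 11.2% of the 1249 higher there, while 34 were lower in both. For MYB76_OE the shared number was 138, or 20.8% and 12.5% of its 1108. The background share called higher over all probe sets was 8.09% in MYB29_OE and 7.15% in MYB76_OE. Of the 248 higher here 87 (35.1%) were lower in MYB29_OE and 6 higher, and 69 (27.8%) were lower in MYB76_OE and 9 higher. The background share called lower was 6.63% in MYB29_OE and 5.61% in MYB76_OE. Plastid-encoded signal moved with these counts, since it was high in MYB28_like_miR and low in its control, and low in the overexpressing lines and high in 3 arrays of theirs. Its part in the overlap was not tested.

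Genes called lower in MYB28_like_miR and higher in both overexpressing lines included BCAT4, AOP3, UGT74C1, AT1G77030 and PHV. Among others of them, picked for their names after the values were seen, were FZL, a dynamin-related gene of plastid membranes, with 205 and 104 against 428 and 468 (3.06-fold lower, adjusted p = 0.00268), PHYLLO of phylloquinone synthesis, with 58.2 and 25.1 against 105 and 173 (3.53-fold lower, adjusted p = 0.0190), and the histone deacetylase gene HDA15, with 145 and 147 against 281 and 287 (1.95-fold lower, adjusted p = 0.0270).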

How the data were processed

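Each sample was hybridised to 1 array. The authors deposited signal intensities on a linear scale, made with MAS5 per the submitters' processing notes, which name no version; the genome build, detection calls and scan dates are not given in the sources used here. Values under an array's 20th percentile were raised to it (the floor), and log2 was taken. A probe set was tested where 2 or more of the 19 arrays had it at their own 40th percentile or above; the 64 control probe sets were left out. That left 15627 of 22746. The model, limma 3.58.1 in R 4.3.3 (eBayes with trend), gave each of 9 groups a mean over the 19 arrays and was tested on simulated data. It left 10 residual degrees of freedom. Tests were two-sided, and called means an adjusted p under 0.05 (Benjamini and Hochberg). Only 2 arrays a group limit the precision; the smallest p an exact permutation of 2 against 2 allows is 0.333. Probe sets were named through the array's annotation table and RefSeq genes of TAIR10.1, 13387 as nuclear, 69 as plastid and 23 as mitochondrial. Named are all tested glucosinolate, sulfate and methionine genes, the 12 largest nuclear changes each way with arrays that do not overlap and at least 1 array of each group above the floor, called list members, the 5 largest organelle changes, and the unnamed probe sets with the largest changes. Members and lists were chosen with earlier results of these data known. Replicate numbers were not treated as pairs. Promoter, protein and microRNA sequences were not used here. Python 3.11.15 and matplotlib 3.10.9 made the figures.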

Additional observations from a re-analysis of the deposited data

Results flagged for a closer look

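Between the 2 microRNA lines 5 probe sets differed by limma's test of the difference itself, with adjusted p-values over all 15627 probe sets. AT1G77030 was lower in MYB28_like_miR by 2.35 on the log2 scale (value -2.35, adjusted p = 0.00652); this call was lost in 2 of 10 alternatives, without ATR1_like_miR replicate 1 and with a replicate block. The probe set 267053_s_at, annotated with several genes, was higher by 3.54, with signals of 279 and 312 against 22.9 and 28.1 (adjusted p = 0.000528), and was called in all 10 alternatives. AT4G12500 was higher by 3.33, against arrays at the floor (adjusted p = 0.0128, lost in 4 of 9 alternatives). The unnamed 254805_at was higher by 4.25, also against the floor, and at least 19.1-fold (adjusted p = 0.0135, lost in 4 of 10). The unnamed 259553_x_at was higher by 2.56, with 239 and 433 against 57.5 and 51.4 (adjusted p = 0.0135, lost in 5 of 10).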

How the results depend on the processing

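The 1005 calls against WT_miR, 460 of them nuclear, 51 plastid and 3 mitochondrial, changed in number with the control, the arrays fitted and a covariate. With 4 arrays only, 383 were called (136 nuclear). With the replicate number as a block in the 6 arrays of the experiment, 499 were called (182 nuclear). Replicate numbers were not shown to pair the arrays, since deviations of arrays with the same number correlated at -0.109 between MYB28_like_miR and WT_miR; a block with the MYB28_like_miR numbers crossed, chosen after seeing the data, gave 1377 calls (635 nuclear). With the 7 wild type arrays of the series pooled 278 were called (151 nuclear, 0 plastid, 0 mitochondrial), with the 5 of the other experiments 1952 (994 nuclear, 2 plastid), and with replicate 2 grouped by its source field 236 (79 nuclear, 0 mitochondrial). With plastid-encoded signal as a covariate there were 38 (8 nuclear, 14 plastid, 0 mitochondrial). The covariate was each array's median log2 signal of the 68 plastid-encoded genes, so the plastid count sets these genes against their own median. It also separated MYB28_like_miR from WT_miR, so that fit can hardly tell plastid signal from the line. Among controls added after seeing the data, the 3 WT_MYB29_MYB76 arrays gave 1757 (920 nuclear, 5 plastid, 0 mitochondrial) and the 2 WT_ATR1_MYB51 arrays 2930 (1491 nuclear). The probe sets called changed too. Of the 1005 calls 166 were among the 278 with 7 wild type arrays and 286 among the 1952 with 5. With the 3 arrays 227 were among the 1757, and with the 2 arrays 521 among the 2930. The larger counts were thus mostly of other probe sets. The cause of these shifts was not tested. Leaving out 1 array gave 195 (without WT_miR replicate 1) to 535 calls in all, 71 to 240 nuclear, 38 to 44 plastid and 0 to 2 mitochondrial. The plastid median of 4.50 became 2.41 with the 7 arrays, 1.63 with the 5 and 0.035 with the 3. Without 1 array it was 4.06 to 4.98. With the covariate it was 0.081, near 0 by construction, since these same genes made the covariate. Against ATR1_like_miR the 5 calls became 10 with no filter, 2 with a filter at the 60th percentile, 15 with 6 arrays only, and 1 to 24 without 1 array. Calls against the MYB29_OE change ranged from 1199 (without MYB29_OE replicate 2) to 3229 and against the MYB76_OE change from 1255 (without MYB76_OE replicate 1) to 2985.

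Single genes called in the main fit or in the alternative turned their sign under another control or with the covariate. Their log2 values follow. With all 7 wild type arrays AT3G11930 was -0.95 and PSBY -0.041. With the 5 of the other experiments AT5G43450 was -0.18, AT1G62510 -0.011, AT3G11930 -2.15, PYK10 2.08, PSBW -0.0003, PSBY -0.25, PHV 0.0044 and YAB5 -0.17. With the covariate AT2G16660 was -0.37, nad4 -0.14, cox1 -0.30 and 247717_at -1.33. With the 3 WT_MYB29_MYB76 arrays AT5G43450 was -0.70, AT1G62510 -0.39, AT3G11930 -2.61, PYK10 1.66, PSBW -0.0086, PSBY -0.23, PHV 0.31 and YAB5 -0.12. With the 2 WT_ATR1_MYB51 arrays AT3G11930 was -1.46, BCAT4 0.83, AT1G19960 0.15, AOP3 0.68, PYK10 2.71, GSTU20 1.40, PSBY -0.28, YAB5 -0.25 and 249866_at 0.0064. Values of named genes under the alternatives against WT_miR were counted by outcome. Of them 1160 kept their side of the threshold, 257 lost their call, 14 gained one and these 31 turned. A change of sign in a gene called neither in the main fit nor in the alternative was counted among the 1160. Precision is limited by 2 arrays a group, and genes near the floor have bounds only.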
